A study of Mus musculus with 6 samples.

Results

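Gm42418, AY036118 and Lars2 are 3 of the 32285 gene models counted in every library of this series, and they were selected on the measured values of the kit contrast, because their share of unique molecular identifiers (UMIs, one per captured molecule) rose when the V3.1 chemistry replaced V3.0. Their difference between kits is therefore given as a description with no test. The 3 transcripts were tested only in other comparisons: one cell class against another, and inhibitors against none. The choice drew on the rise with V3.1 in these same classes and libraries. Class differences in V3.1 libraries are therefore no independent support. Other genes were also tested between kits, for the share of all genes called and for lists that hold none of the 3. The cells were sorted live CD45+ CD11b+ myeloid cells from the whole brains of 3 male C57BL/6J mice at postnatal day 89, each dissociated by cold Dounce homogenization. The brains of mice 1 and 3 were processed without inhibitors (DNC-NONE) and that of mouse 2 with actinomycin D, triptolide and anisomycin (DNC-INHIB), so the inhibitor group is 1 animal. Cells of every mouse were run on both 10X Genomics 3′ kits, V3.0 on the original controller and V3.1 on the NextGEM controller, which gave 6 libraries. The experiment asks how far the kit version changes what is detected, and kit, chip and controller cannot be told apart in it.

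A cell's ribosomes hold 18S, 5.8S and 28S ribosomal RNA (rRNA) cut from 1 long precursor that RNA polymerase I makes in the nucleolus from many tandem gene copies. Mature rRNA makes up most of a cell's RNA and lacks a poly(A) tail, so kits that prime from poly(A) with oligo(dT) are meant to leave it out, and gene models that lie on rRNA sequence record what is captured all the same. Mitochondria carry their own rRNA and messenger RNAs. Lars2 is a nuclear gene that encodes the mitochondrial leucyl-tRNA synthetase, the enzyme that charges leucine onto the tRNA used inside mitochondria.

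The sequences below, from the GENCODE M21 transcripts on GRCm38, show why the 3 gene models are called ribosomal RNA-like. Gm42418 (ENSMUSG00000098178) is annotated as a lincRNA with 1 exon of 1831 bases at chr17:39846958-39848788 on the plus strand. It is known as a model that covers the downstream part of 18S rRNA and runs into the first internal transcribed spacer, which was not aligned here. The first sequence is bases 1176 to 1304 of the transcript (chr17:39848133-39848261), and capitals mark GGATCATTA, the conserved last bases of 18S rRNA:
Gm42418 across the 18S end: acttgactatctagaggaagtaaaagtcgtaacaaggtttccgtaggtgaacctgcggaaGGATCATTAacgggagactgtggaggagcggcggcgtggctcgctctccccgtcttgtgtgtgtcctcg
GGATCATTA, searched on both strands, occurred once in Gm42418 and in neither of the other two transcripts. It was present in 0.681% of the 18360 GENCODE transcripts whose length lies between 0.8 and 1.25 times that of Gm42418.

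AY036118 (ENSMUSG00000105361), also annotated as a lincRNA, has 1 exon of 923 bases at chr17:39847113-39848035 on the minus strand. It lies wholly inside Gm42418 and is the exact reverse complement of bases 156 to 1078 of it. The pair of stretches below covers the same 60 bases (chr17:39847544-39847603) read from either strand, with the 10 central bases of each in capitals:
Gm42418, plus strand: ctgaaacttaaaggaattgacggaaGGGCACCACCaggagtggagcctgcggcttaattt
AY036118, minus strand: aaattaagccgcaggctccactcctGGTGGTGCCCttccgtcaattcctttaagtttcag
Sense reads at this locus are counted for Gm42418 and antisense reads for AY036118 only where strand is read, as it is in a 3′ kit counted with its default setting. Because the rRNA genes are repeated many times in the genome, where a read of this sequence came from is uncertain.

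Lars2 (ENSMUSG00000035202) spans chr9:123366927-123462666 on the plus strand, and its transcript used here has 21 exons and 3894 bases. GGATCATTA was absent from it, and no other 18S sequence was compared with it. Its 3′ untranslated region, in the last exon, shares an exact run of 52 bases (bases 3278 to 3329, chr9:123462048-123462099) with the antisense gene Gm15564. The first 30 bases of that run, in capitals because all of them are shared, correspond to a conserved stretch of 28S rRNA; no 28S sequence was aligned here:
Lars2, 3′ untranslated region: GAATTCACCAAGCGTTGGATTGTTCACCCA
Among 141767 GENCODE transcripts, these 30 bases occurred in 4, which belong to Lars2, Gm15564 and AA474408. The longest run of A was 6 bases in Gm42418, 4 in AY036118 and 6 in that Lars2 transcript, and 50.7%, 90.6% and 74.6% of GENCODE transcripts of similar length had a run at least as long.

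The 6 libraries held 29412 barcodes and 83133615 UMIs, from 6275898 UMIs in the V3.0 library of mouse 3 to 18872816 in the V3.1 library of mouse 3. Fixed marker genes assigned 19059 barcodes with 1000 to 4000 genes to microglia and 269 to neutrophils, and 9646 barcodes had under 1000 genes. The V3.0 library of mouse 3 stood apart: 21.5% of its barcodes passed the limits on genes, UMIs and mitochondrial share, against 70.0% to 76.8% in the others. The marker gate left 5 border macrophages in 3 libraries, so these cells were taken from a cluster of 152 cells that carried their markers, built without the 3 transcripts. By the marker gate 72 of these cells are also counted among the microglia, and microglial markers took more of the cluster's UMIs (0.831% in V3.0) than border macrophage markers did (0.320%). Between 1 and 14 barcode sequences were shared by any 2 libraries. Microglial markers took 2.33% to 2.62% of UMIs in microglia of each library, and neutrophil markers 43.0% to 47.0% of UMIs in neutrophils. Both classes were gated on these same markers, so the shares are no separate check of what the cells are.

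Gm42418 rose in V3.1 microglia of every mouse. Its mean share of a microglial cell's UMIs was 0.0501% in mouse 1, 0.0482% in mouse 2 and 0.0343% in mouse 3 with V3.0. With V3.1 it was 0.187%, 0.234% and 0.192% in the same mice. The kits did not overlap. The V3.0 libraries had a mean of 0.0442% ± 0.00862 (SD, n = 3), the V3.1 libraries one of 0.204% ± 0.0258 (SD, n = 3), and the ratio within a mouse ran from 3.73 to 5.60. Ordered by summed UMIs, with no scaling for transcript length, Gm42418 stood at place 264, 285 and 398 among all genes in V3.0 microglia of mice 1, 2 and 3, and at place 31, 27 and 30 in V3.1 microglia. In neutrophils the share was 0.0326%, 0.0315% and 0.0289% with V3.0 and 0.121%, 0.151% and 0.116% with V3.1, which is 3.72 to 4.80 times higher within a mouse.

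AY036118, the antisense model, had the larger ratio between kits. In V3.0 microglia it took 0.00228%, 0.00238% and 0.00224% of UMIs in mice 1, 2 and 3. In V3.1 microglia it took 0.0277%, 0.0255% and 0.0185%, a ratio of 8.27 to 12.1 within a mouse. The V3.0 libraries lay close together, with a mean of 0.00230% ± 0.0000753 (SD, n = 3), and the V3.1 libraries were spread more widely at 0.0239% ± 0.00483 (SD, n = 3). In neutrophils 10 UMIs of 641195 were AY036118 with V3.0 and 168 of 1002522 with V3.1, a rate ratio of 10.7 (95% counting interval 5.70 to 22.8). Such intervals cover counting error only.

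Of the UMIs assigned to Gm42418 or AY036118, the antisense part was larger with V3.1 in every mouse. In V3.0 microglia it was 4.49%, 4.71% and 6.49% in mice 1, 2 and 3. In V3.1 microglia it was 12.8%, 9.79% and 8.71%. The kits were closest in mouse 3. In barcodes under 1000 genes the antisense part was 6.12%, 7.49% and 4.65% with V3.0 and 19.5%, 13.7% and 12.6% with V3.1. The plot of antisense share by class shows these values with the wide intervals of the rarer cells.

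**Figure D1:**
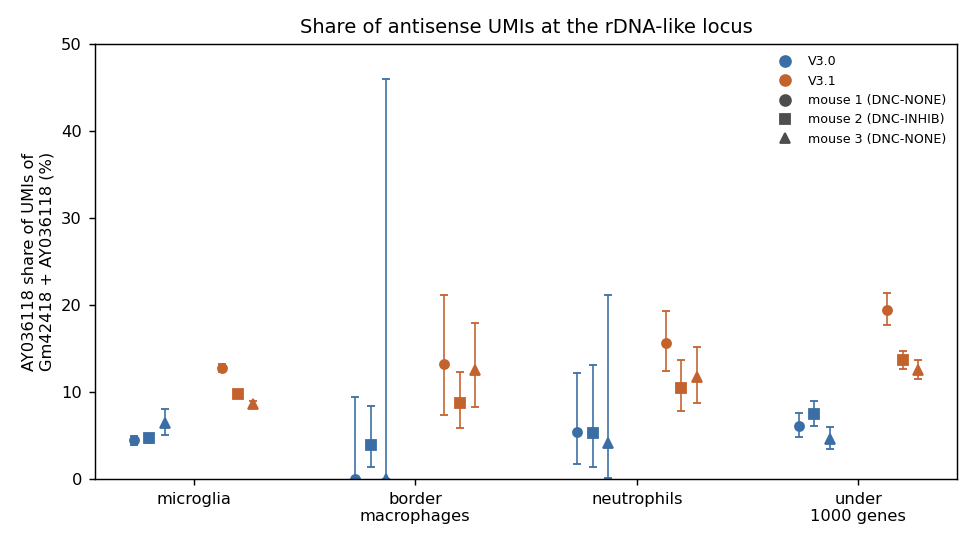
Share of AY036118 among the summed UMIs of Gm42418 and AY036118 (vertical axis, %) in each class (horizontal axis) and library; bars are Clopper-Pearson 95% intervals. In microglia the V3.0 libraries lie between 4.49% and 6.49% and the V3.1 libraries between 8.71% and 12.8%.

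Lars2 also rose with V3.1 in microglia of every mouse. With V3.0 it took 0.00179%, 0.00188% and 0.00165% of microglial UMIs in mice 1, 2 and 3. With V3.1 it took 0.00818%, 0.00837% and 0.00577%, a ratio of 3.49 to 4.56 within a mouse. Microglia held 556 UMIs of Lars2 with V3.0 and 2810 with V3.1. In neutrophils the gap was wider: 2, 0 and 0 UMIs with V3.0, and 45, 41 and 23 with V3.1. The 0 counts of mice 2 and 3 allow a share of up to 0.00120% and 0.00381%. Summed over mice, the neutrophil level was 3.12 CPM (counts of the gene scaled to a common library total) with V3.0 and 109 CPM with V3.1, a ratio of 34.9 with a counting interval of 9.42 to 291, which rests on 2 V3.0 UMIs.

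**Figure D2:**
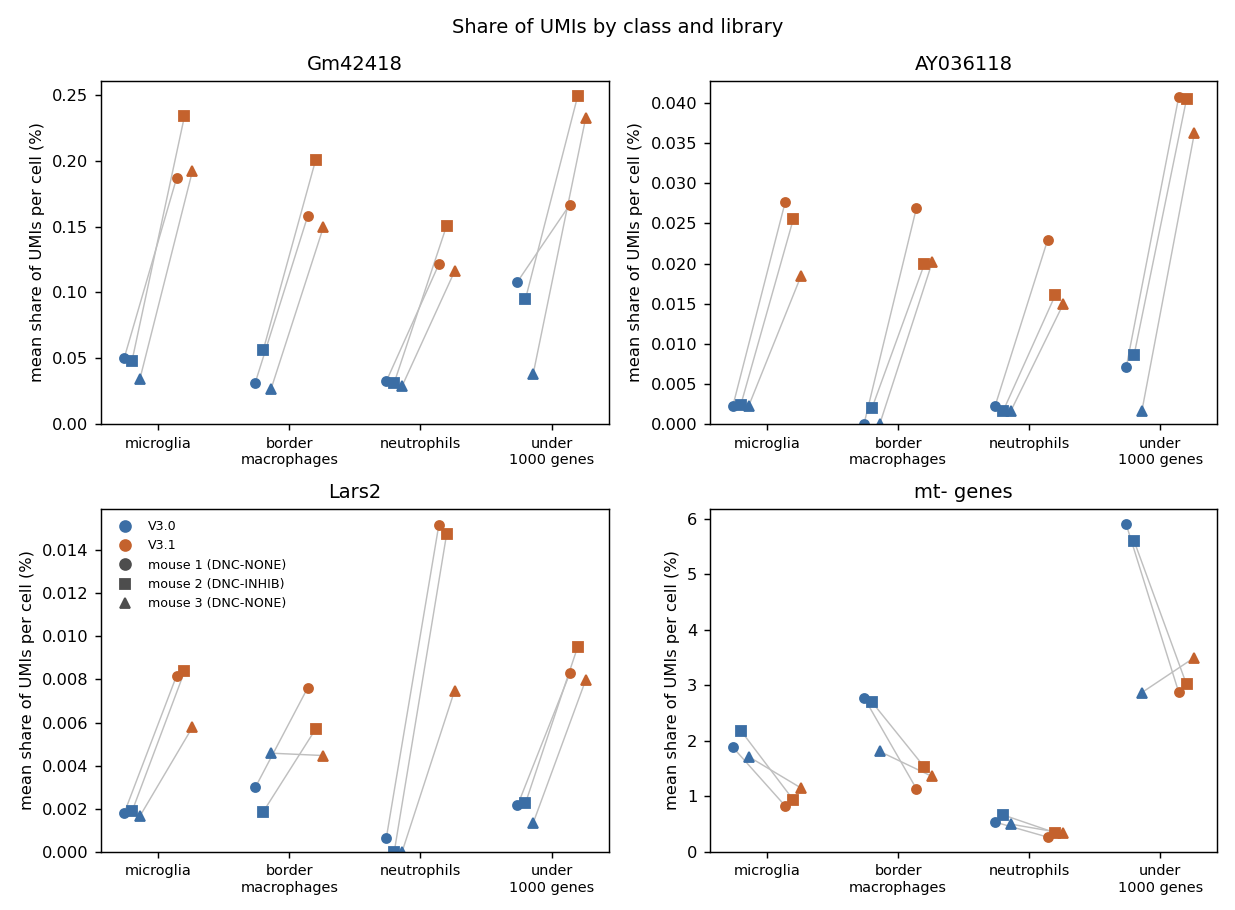
Mean share of a cell's UMIs (vertical axes, %) for Gm42418, AY036118, Lars2 and the summed mt- genes in 4 classes of barcodes; each point is a library and lines join the libraries of a mouse. Every line for Gm42418 and AY036118 goes up from V3.0 to V3.1, while the mt- lines go down in all but mouse 3 under 1000 genes.

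At equal depth the same pattern held for the share of cells with at least 1 UMI. After each microglial cell was thinned to 1000 UMIs, Gm42418 was seen in 34.5%, 34.4% and 28.2% of V3.0 microglia of mice 1, 2 and 3 and in 76.1%, 84.7% and 77.4% of V3.1 microglia. AY036118 was seen in 2.16%, 2.03% and 3.18% with V3.0 and in 21.9%, 20.3% and 16.4% with V3.1. For Lars2 the shares were 1.99%, 1.62% and 1.86% with V3.0 and 7.17%, 7.52% and 5.53% with V3.1. No microglial cell was left out at this depth. Without thinning, the shares averaged 70.8% and 98.6% for Gm42418, 7.26% and 49.7% for AY036118, and 6.01% and 22.6% for Lars2. As neutrophils at 1000 UMIs held Gm42418 in 27.5% to 35.7% of V3.0 cells and 68.5% to 72.7% of V3.1 cells, no class here lacked it, and the part of free RNA in these shares was not tested.

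Microglia of 1 library differed widely in Gm42418. In V3.1 the 10th and 90th percentiles of the share were 0.0564% and 0.306% in mouse 1, 0.0914% and 0.368% in mouse 2, and 0.0590% and 0.315% in mouse 3. In V3.0 the 10th percentile was 0 in every mouse and the 90th was 0.0965%, 0.0996% and 0.0782%. Cells with more than 1% of their UMIs in Gm42418 numbered 6 of 8423 with V3.0 and 145 of 10636 with V3.1, and the highest share in any V3.1 microglial cell was 5.91%. After thinning to 1000 UMIs, the variance of the Gm42418 count over cells was 1.25 to 3.24 times its mean in V3.0 libraries. In V3.1 libraries it was 2.60 to 3.11 times the mean. For AY036118 it was 1.10 to 1.29 times, and for Lars2 0.982 to 1.05 times the mean. Lars2 averaged only 0.0162 to 0.0794 UMIs per cell at this depth, against 0.350 to 2.35 for Gm42418. At such low means this measure can show little spread, so it does not compare the transcripts.

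**Figure D3:**
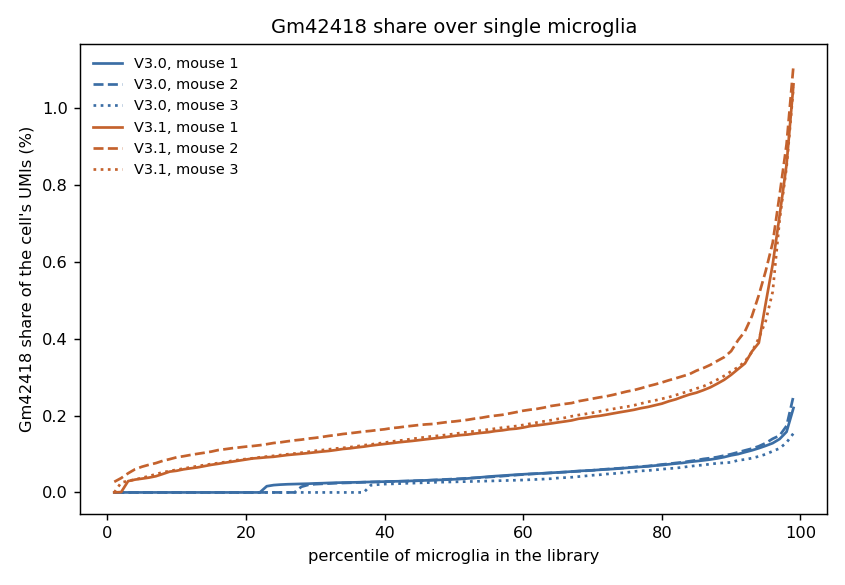
Share of each microglial cell's UMIs that is Gm42418 (vertical axis, %) at the 1st to 99th percentile of cells (horizontal axis), 1 line per library. The 3 V3.1 lines lie above the 3 V3.0 lines at every percentile above the 1st, and all bend up towards the highest percentiles.

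Over single microglia, the antisense transcript had a higher rank correlation with Gm42418 than Lars2 had, but it was also detected in more cells. Spearman's rho between the Gm42418 and AY036118 shares was 0.229, 0.248 and 0.199 over the V3.1 microglia of mice 1, 2 and 3 and 0.0861, 0.0497 and 0.0140 in V3.0, where most cells hold no AY036118 UMI. Between Gm42418 and Lars2 it was 0.0546 to 0.0954 in V3.1. In the top quartile of V3.1 microglia by Gm42418 share, AY036118 took 0.0482%, 0.0425% and 0.0310% of UMIs in mice 1, 2 and 3, against 0.0178%, 0.0162% and 0.0126% in the bottom quartile. Lars2 was also higher in the top quartile, at 0.00961%, 0.0104% and 0.00767% against 0.00759%, 0.00745% and 0.00445% in the bottom quartile. The correlations and quartiles are descriptions over cells that share a library, and all shares of 1 cell share its total.

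The kit gap was present in all 9 microglial clusters with at least 20 cells of each kit. In clusters built without the 3 transcripts, the mean Gm42418 share ran from 0.187% to 0.214% over the 9 microglial clusters with at least 20 V3.1 cells. Over the 10 with at least 20 V3.0 cells it ran from 0.0401% to 0.108%, and the highest value was that of a cluster of 250 cells led by mt-Co3, in which mt- genes took 4.38% of V3.0 UMIs. Another cluster led by mt-Co3, with 308 V3.0 cells and the same mt- share, had a Gm42418 share of 0.0454%. AY036118 ran from 0.0189% to 0.0321% in V3.1 clusters and from 0.00181% to 0.00442% in V3.0 clusters.

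Transcripts encoded by the mitochondrial genome moved the opposite way to the 3 transcripts in microglia. The 13 mt- genes, which encode subunits of the respiratory chain and ATP synthase, took 1.88%, 2.18% and 1.71% of microglial UMIs in mice 1, 2 and 3 with V3.0 and 0.823%, 0.937% and 1.15% with V3.1. In neutrophils the mt- share fell from a mean of 0.565% ± 0.0879 (SD, n = 3) to 0.313% ± 0.0424 (SD, n = 3) over libraries. Within a library, however, the Gm42418 and mt- shares of microglia had a rho of only -0.0336 to 0.0496 over cells. The share of mt- genes also separated the classes: it was lower in neutrophils than in microglia in 6 of 6 libraries, by a mean of 1.01 percentage points, and higher in barcodes under 1000 genes in 6 of 6 libraries, at a mean of 3.96% against 1.45%. Both class differences had p = 0.25 in the exact sign-flip permutation test over 3 mice (two-sided), the smallest p that 3 mice allow.

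Barcodes under 1000 genes, which can hold broken cells, free RNA or cells of low content, carried more AY036118 than microglia. The AY036118 share was 0.00706%, 0.00859% and 0.00167% in these barcodes of mice 1, 2 and 3 with V3.0 and 0.0407%, 0.0405% and 0.0363% with V3.1. Apart from mouse 3 with V3.0, each value was above that of microglia of the same library. In edgeR's quasi-likelihood test on summed UMIs with the library as a block, AY036118 was higher in barcodes under 1000 genes than in microglia by 0.91 ± 0.19 on the log2 scale (SE, adjusted p = 0.00231). Of 10525 genes tested, 13.1% were called higher, which required a log2 difference over 0.58 as well as an adjusted p under 0.05. Those barcodes also held neutrophil markers at 2.86% to 4.57% of UMIs, against 0.0784% to 0.142% in microglia, and the part of such mixing in the difference was not tested. The difference was 1.04 with V3.0 libraries alone (adjusted p = 0.136), 0.74 when mouse 2 was left out (adjusted p = 0.0580) and 0.76 with no library block (adjusted p = 0.402), so the call was lost in all 3. It was kept with V3.1 libraries alone at 0.72 (adjusted p = 2.1e-09), a fit to values that the choice of AY036118 had used. Without the V3.0 library of mouse 3 the difference was 0.97 (adjusted p = 1.23e-05).

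Gm42418 and Lars2 did not pass in these barcodes. The Gm42418 share was 0.108%, 0.0947% and 0.0382% with V3.0 and 0.167%, 0.2496% and 0.232% with V3.1 in mice 1, 2 and 3, and its log2 difference from microglia was 0.46 ± 0.17 (SE, adjusted p = 0.0425), short of the fold limit. Lars2 took 0.00215%, 0.00224% and 0.00134% with V3.0 and 0.00830%, 0.00953% and 0.00797% with V3.1, and its log2 difference was 0.30 ± 0.12 (SE, adjusted p = 0.0605). All 3 transcripts passed the filter on low counts in each comparison fitted. P-values over 6 libraries of 3 mice count the libraries of a mouse as separate and are too small for that reason.

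The kit gap in Gm42418 depended on the number of genes per barcode in mice 1 and 2. With V3.0, the Gm42418 share in barcodes under 500 genes was 0.256% in mouse 1 and 0.184% in mouse 2, against 0.0484% and 0.0438% at 1500 to under 2000 genes. With V3.1 it was 0.172% and 0.277% under 500 genes and 0.180% and 0.223% at 1500 to under 2000 genes in the same mice. Under 500 genes the kits were thus reversed in mouse 1, with V3.0 the higher, and closer together in mouse 2 than at 1500 to under 2000 genes. The V3.0 library of mouse 3 was flat, at 0.0409% under 500 genes and 0.0348% at 1500 to under 2000 genes. Of its barcodes, 1839 had under 500 genes, compared with 206 and 330 in the V3.0 libraries of mice 1 and 2. The mt- share of mouse 3 under 1000 genes also went against the other mice, at 2.87% with V3.0 and 3.50% with V3.1, where mice 1 and 2 fell from 5.90% to 2.88% and from 5.60% to 3.02%.

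**Figure D4:**
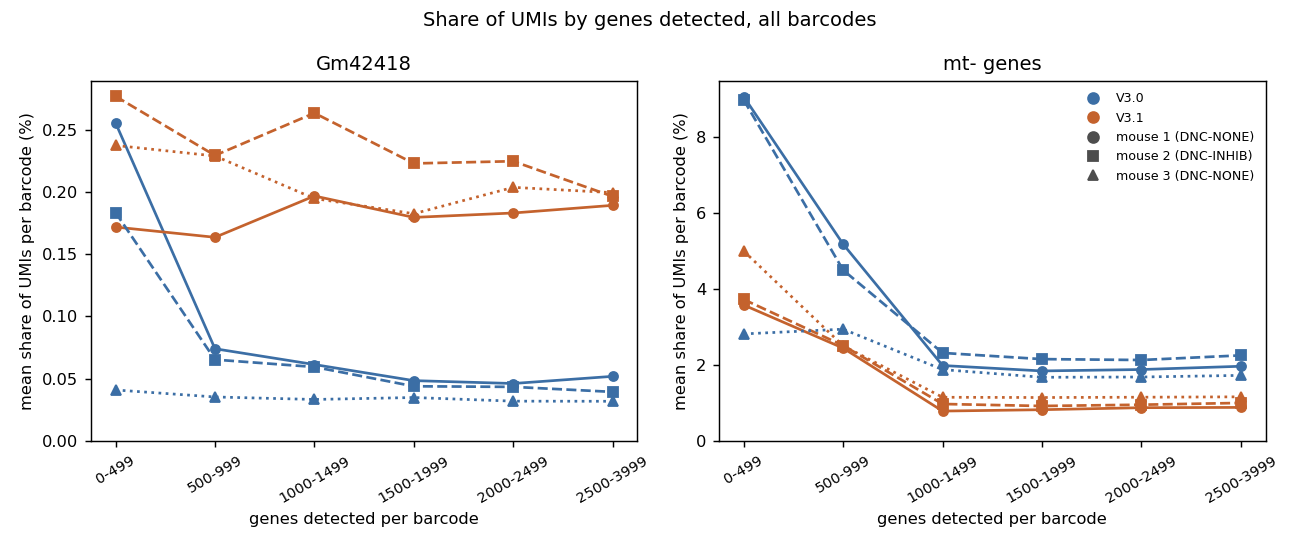
Mean share of a barcode's UMIs (vertical axes, %) for Gm42418 and the mt- genes by number of genes detected (horizontal axis), 1 line per library, all barcodes. With V3.0, mice 1 and 2 rise steeply below 500 genes, to 0.256% and 0.184% for Gm42418, while mouse 3 stays at 0.0409%.

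Neutrophils gave a class difference that turned with the scaling for Gm42418 and AY036118. The plain shares of Gm42418 and AY036118 were lower in neutrophils than in microglia in 6 of 6 libraries, with means over libraries of 0.0802% and 0.00991% against 0.124% and 0.0131%. The log2 differences were 0.01 ± 0.11 (SE, adjusted p = 0.913) for Gm42418 and 0.25 ± 0.15 (SE, adjusted p = 0.122) for AY036118 in edgeR with TMM scaling. With total UMIs as the only scaling, an alternative chosen after the values were seen, they were -0.75 (adjusted p = 1.89e-11) and -0.51 (adjusted p = 0.00105). The median over all 9585 genes tested was -1.22 with TMM and -1.99 with total UMIs, and both transcripts were above it under either scaling. The 8 neutrophil markers, S100a8 and S100a9 among them, took 43.0% to 47.0% of neutrophil UMIs. AY036118 was called higher with TMM in V3.1 libraries alone (0.65, adjusted p = 7.46e-05), without mouse 3 (0.60, adjusted p = 0.00359) and with clusters in place of the gate (0.63, adjusted p = 0.000126). TMM called 1586 genes higher and 5665 lower (16.5% and 59.1% of those tested), and total UMIs called 980 higher and 7329 lower.

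Lars2 was called higher in neutrophils by 1.00 ± 0.20 on the log2 scale with TMM (SE, adjusted p = 1.52e-06), but the call rested on the V3.1 libraries. Lars2 was chosen for its rise in those libraries, so the call is no independent support. The difference was 1.66 with V3.1 alone (adjusted p = 7.06e-15) and -1.76 with V3.0 alone (adjusted p = 0.119), where neutrophils held 2 Lars2 UMIs. Under DESeq2 (0.43, adjusted p = 0.462), without the library block (1.24, adjusted p = 0.0714) and with total UMIs (0.23, adjusted p = 0.245) the call was lost. Within each V3.1 library the plain share was higher in neutrophils, at 0.0152%, 0.0148% and 0.00748% against 0.00818%, 0.00837% and 0.00577% in microglia. The Gm42418-to-Lars2 ratio of UMIs in V3.1 was accordingly 8.49, 10.1 and 15.7 in neutrophils of mice 1, 2 and 3 and 22.5, 27.1 and 33.3 in microglia.

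Border macrophages, the macrophages of meninges and vessels, were described without a test because they were found by clustering. Gm42418 took 0.0315%, 0.0560% and 0.0265% of their UMIs with V3.0, from 24, 55 and 5 cells of mice 1, 2 and 3. With V3.1 it took 0.158%, 0.201% and 0.150%, from 14, 31 and 23 cells. The kits did not overlap, and the ratio within a mouse was 3.58 to 5.65. AY036118 had 0, 6 and 0 UMIs with V3.0, where the 0 counts allow shares of up to 0.00273% and 0.0121%, and 14, 29 and 25 UMIs with V3.1. Lars2 had 4, 5 and 1 UMIs with V3.0 and 5, 10 and 5 with V3.1, and its shares overlapped between kits. In the 80 cells of the cluster that the gate does not call microglia, a set chosen after the values were seen, Gm42418 took 0.0231%, 0.0667% and 0.0205% with V3.0 and 0.165%, 0.213% and 0.163% with V3.1.

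The DNC-INHIB group is 1 mouse, so its comparison with DNC-NONE rests mainly on the values per mouse. In microglia summed per mouse, Gm42418 was at 1080 CPM in mouse 1, 1307 in mouse 2 (DNC-INHIB) and 1678 in mouse 3. The inhibitor mouse thus lay between the others in these sums. AY036118 was at 130, 127 and 159 CPM and Lars2 at 46.1, 49.0 and 51.3 in the same mice. For Gm42418 the order of mice differed by kit. With V3.1 mouse 2 was the highest, at 2299 CPM against 1873 and 1939 in mice 1 and 3. With V3.0 it was at 460 CPM, against 489 and 338. The log2 differences were -0.07 ± 0.12 (SE, adjusted p = 0.968), -0.17 ± 0.10 (SE, adjusted p = 0.749) and 0.02 ± 0.11 (SE, adjusted p = 0.986) in edgeR, with the spread of the lone mouse taken from the DNC-NONE mice, and 0.997% of 13235 genes were called in either direction (132, with 1058 at an unadjusted p below 0.05, and 19 called by DESeq2). These sums mix the kits unevenly, since V3.1 supplied 42.7%, 46.1% and 83.7% of the microglial UMIs of mice 1, 2 and 3. With the kit as a covariate over 6 libraries, the log2 differences were 0.23 (adjusted p = 0.399), 0.10 (adjusted p = 0.816) and 0.22 (adjusted p = 0.501). Actinomycin D blocks RNA polymerase I as well as polymerase II. In the sums over both kits, leaving out 1 DNC-NONE mouse moved the Gm42418 difference to between -0.35 and 0.32. No direction can be read from those sums.

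**Figure D5:**
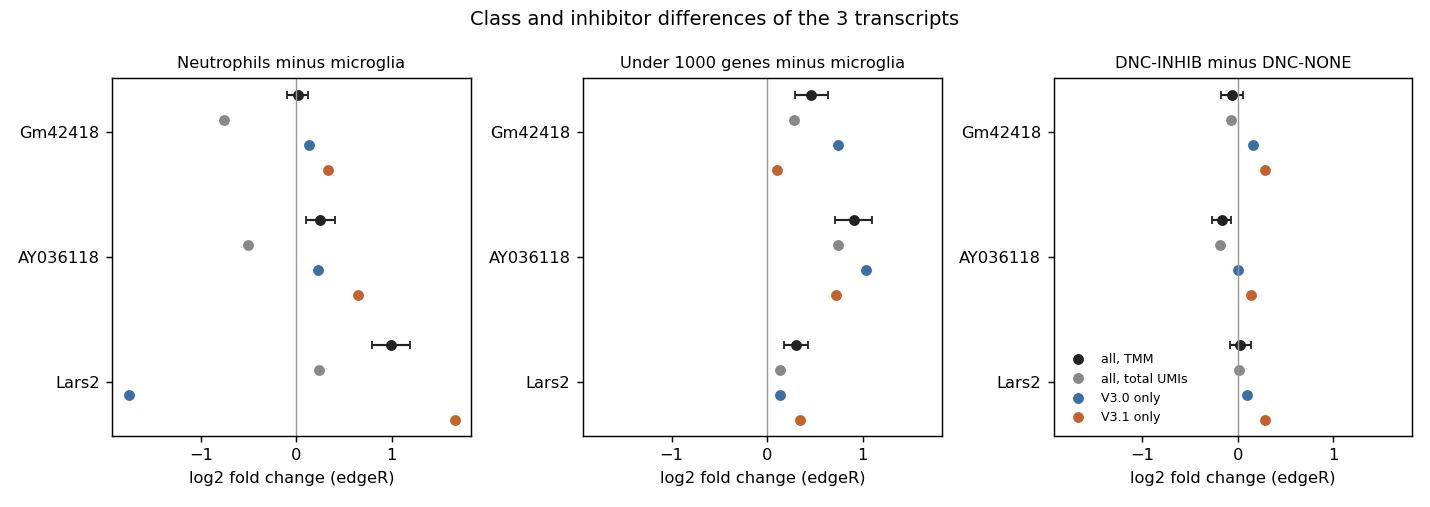
Log2 fold changes from edgeR (horizontal axes) of the 3 transcripts in neutrophils and in barcodes under 1000 genes against microglia, and in DNC-INHIB against DNC-NONE microglia; black bars are ± 1 SE of the TMM fit to all libraries, and the other points change the scaling or keep 1 kit. In neutrophils Gm42418 and AY036118 turn from 0.01 and 0.25 with TMM to -0.75 and -0.51 with total UMIs, and Lars2 goes from -1.76 with V3.0 alone to 1.66 with V3.1 alone.

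Genes of related function were taken as lists to set beside the 3 transcripts. Between kits, 3.00% of 12055 genes tested in microglia were called by edgeR (362 genes, or 548 with the mouse as a block), and 1.45% were called lower. Of 18 tested mitochondrial aminoacyl-tRNA synthetases, the family of Lars2, edgeR and DESeq2 called 0 between kits, with 6 at an unadjusted p below 0.05 in edgeR and a median log2 difference of -0.15. Both tools also called 0 of 18 RNA polymerase I and nucleolar factors (2 at an unadjusted p below 0.05, median 0.07) and 0 of 91 cytosolic ribosomal protein symbols (44 at an unadjusted p below 0.05, median 0.10). With the mouse as a block, edgeR called 0 of the synthetases, 0 of the polymerase I and nucleolar factors, and 1 ribosomal protein symbol higher and 1 lower. Of the 13 mt- genes, 10 were called lower with V3.1, led by mt-Nd3 at -1.39, mt-Co3 at -1.33 and mt-Nd2 at -1.19.

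In barcodes under 1000 genes against microglia, 13 of 13 mt- genes were called higher and 82 of 89 ribosomal protein symbols lower, where 14.5% of all genes were lower. With total UMIs as the only scaling these counts were 13 and 83, while over all genes 800 were called higher and 2419 lower, against 1374 and 1526 with TMM. In these barcodes mt-Nd6, a complex I subunit, was higher by 1.67 and Rplp1, a protein of the ribosomal stalk, was lower by 1.25 in log2 units. Neat1 and Malat1, long noncoding RNAs kept in the nucleus, were higher there by 1.85 and 0.79. With TMM 3 of 6 listed long noncoding RNAs were called higher, and with total UMIs 2 were higher and 1 lower. The list was Malat1, Neat1, Meg3, Kcnq1ot1, Norad, Gas5, Snhg1 and Snhg12, and it was not limited to RNAs kept in the nucleus. Neat1 was also higher in neutrophils than in microglia, by 3.40 with TMM, while 5 of these 6 RNAs were called lower there. The part of neutrophil RNA in the Neat1 difference was not tested. In neutrophils 62 of 90 ribosomal protein symbols, 9 of 10 mitochondrial synthetases and 14 of 17 polymerase I and nucleolar factors were called lower with TMM, where 59.1% of all genes were lower. With total UMIs the counts were 80, 10 and 16, where 76.5% of all genes were lower. Rpl10a, of the large ribosomal subunit, was at -3.50 and Nop56, a snoRNP core protein, at -4.94 with TMM. The ribosomal protein list was built on symbols and takes in kinases such as Rps6ka2, which was called higher in neutrophils. Between DNC-INHIB, which is 1 mouse, and DNC-NONE, the median log2 difference of the 13 mt- genes was 0.24 in edgeR. The median over all genes tested was -0.0066, and the medians of the other lists lay between -0.11 and 0.04. These sums mix the kits unevenly.

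Gm26917 (ENSMUSG00000097971), a lincRNA model at chr17:39843013-39846341 just upstream of Gm42418 on the same strand, went the other way from its neighbour in microglia. It was at 43.5, 50.1 and 50.6 CPM in V3.0 microglia of mice 1, 2 and 3 and at 25.6, 26.3 and 39.2 in V3.1 microglia. Its log2 difference between kits in microglia was -0.62, and it was called lower. In barcodes under 1000 genes Gm26917 had no common direction. It was at 52.7, 62.9 and 48.9 CPM with V3.0 and 52.1, 55.0 and 76.6 with V3.1 in mice 1, 2 and 3. It was 1 of 2 repeat-like or ribosomal RNA-like models, other than the 3 transcripts, that passed the filter on low counts between kits in microglia. In the main fit, under DESeq2 and with total UMIs 1 of the 2 was called lower. In the main fit 1.45% of all genes were lower. Both models were called lower with the mouse as a block, a setting that called 548 genes in either direction. Of 6 listed long noncoding RNAs tested between kits, edgeR and DESeq2 called 0, with 2 at an unadjusted p below 0.05 in edgeR. Over all 12055 genes edgeR called 3.00%, so 0 of 6 says little about these RNAs. Gm15564, which shares the 52-base run with Lars2, had 0 to 4 UMIs in microglia of any library.

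The 5 genes most like Gm42418 over 24 profiles, 6 libraries in 4 classes, were AY036118 (Pearson's r = 0.90), Lars2 (0.75), Ulk4 (0.72), Rc3h1 (0.69) and Slc38a2 (0.67), among 6041 genes with a mean of at least 20 CPM. The first places follow from how the transcripts were chosen, and the profiles share libraries. Ulk4, a kinase-like protein, was at 13.5, 12.1 and 20.4 CPM in V3.0 microglia of mice 1, 2 and 3 and at 50.7, 40.1 and 48.0 in V3.1 microglia. Its V3.0 neutrophils held 0 UMIs in every mouse and its V3.1 neutrophils 8, 8 and 7. Rc3h1, an RNA-binding protein, averaged 67.8 and 99.1 CPM in V3.0 and V3.1 microglia, and Slc38a2, an amino acid transporter, 163 and 193.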

How the data were processed

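The authors deposited UMI counts per gene and barcode, filtered by barcode, for 6 libraries; per the labels and the study's methods these came from Cell Ranger 5.0.0 with its mm10 reference. Every deposited barcode had at least 500 UMIs. Shares are UMIs of a gene over all UMIs of a cell, averaged over the cells of a library. A barcode within 1000 to 4000 genes, and over neither 12000 UMIs nor 15% mt- UMIs, was assigned to a class when at least 3 of the class's 8 markers were seen, and at least 2 more than of any other class; of the gated microglia, 0.824% lay at a limit of this rule. No doublet caller was run. Clusters came from scanpy 1.11.5 (Leiden), without the 3 transcripts. UMIs summed per library and class were tested with edgeR 4.0.16 (TMM, filterByExpr, quasi-likelihood, Benjamini-Hochberg over all genes; called where the adjusted p was under 0.05 and the log2 difference over 0.58 in size), checked on simulated counts, with DESeq2 1.42.0 as an alternative. Each SE of an edgeR log2 difference was derived from the same test, as the size of the difference over the square root of its F statistic. The planned test of border macrophages could not be run on 5 gated cells and was left out. Thinning drew 1000 UMIs per cell; a count of 0 allows 3 UMIs.

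The transcripts, the gene lists and the alternatives were chosen with earlier results of these data known. Named genes were the 3 transcripts, up to 3 called genes of largest change per list and comparison (a selection of these is printed), the 5 genes most like Gm42418 by Pearson's r of log2(CPM + 1), and Gm26917 and Gm15564 of the list of repeat-like models. Libraries of equal number come from the same mouse, so the numbers pair the samples. Over 12055 genes, deviations from the kit means correlated at 0.32, 0.43 and 0.14 within mice 1, 2 and 3. Between mice the correlations were -0.31 to -0.01. Deviations from a kit mean cancel over the libraries of that kit, so the values between mice are no separate check of the pairing. Nothing in the sources used here gives separate sorts for the libraries of a mouse, so the spread between kits of 1 mouse may be technical. All 6 tables hold the same 32285 genes, and no column of another sample was present.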

Additional observations from a re-analysis of the deposited data

Results flagged for a closer look

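The plain Lars2 share in neutrophils was below that of microglia in the V3.0 libraries and above it in the V3.1 libraries. Neutrophils minus microglia was -0.00155 percentage points of UMIs on average with V3.0 and 0.00503 percentage points with V3.1, above 0 in 3 of 3 V3.1 libraries. The V3.0 value rests on 2, 0 and 0 Lars2 UMIs in 107 neutrophils of mice 1, 2 and 3. In mouse 3 the 0 count allows a share of up to 0.00381%, above the 0.00165% of its microglia, so the direction in that library is not known. The V3.0 libraries alone did not pass (adjusted p = 0.119, edgeR), and the difference between the kits was not tested, since Lars2 was chosen on its rise with V3.1.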

How the results depend on the processing

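In microglia, the mean share of each transcript kept its rise with V3.1 in every alternative run except the median per cell of Lars2. As medians per cell, V3.1 minus V3.0 was 0.129 percentage points for Gm42418, 0.0137 for AY036118, 0 for Lars2 and 0.153 for their sum, against 0.160, 0.0216, 0.00567 and 0.187 as means. With barcodes from 500 genes, the mt- difference was -1.29, against -0.957. At 2000 UMIs per cell the share of microglia with a UMI rose by 42.7, 29.1 and 9.75 percentage points for Gm42418, AY036118 and Lars2, against 47.1, 17.1 and 4.92 at 1000.

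In neutrophils against microglia, Gm42418 and AY036118 were at -0.75 and -0.51 with total UMIs, and Gm42418 at -0.0569 with no filter on low counts and between -0.00136 and 0.38 without 1 mouse. AY036118 was 0.63 with clusters, 0.65 with V3.1 alone and 0.16 to 0.60 without 1 mouse. Lars2 was 0.43 under DESeq2, 0.23 with total UMIs, 1.24 without the block, -1.76 with V3.0 alone and 0.90 to 1.43 without 1 mouse.

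In barcodes under 1000 genes AY036118 was 0.76 without the replicate block (adjusted p = 0.402, edgeR), 1.04 with V3.0 alone and 0.74 to 1.00 without 1 mouse. The genes called there numbered 406 with V3.0 alone, 4427 with V3.1 alone and 1345 to 4307 without 1 mouse, against 2900. Without the V3.0 library of mouse 3, an alternative chosen after seeing the data, 4221 were called.

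For DNC-INHIB against DNC-NONE, 19 genes were called by DESeq2, 77 with V3.1 alone and 73 with the kit as a covariate, against 132. Gm42418 was 0.16 with V3.0 alone, 0.28 with V3.1 alone, 0.23 with the kit as a covariate and -0.35 to 0.32 without 1 DNC-NONE mouse. AY036118 was 0.13 with V3.1 alone, 0.10 with the kit as a covariate and -0.31 to 0.00601 without 1 mouse, and Lars2 -0.0578 to 0.13. Between kits, 548 genes were called with the mouse as a replicate block, and leaving out 1 mouse gave 154 (mouse 1), 145 (mouse 2) and 394 (mouse 3), against 362.

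Where a value changed, the cause was not tested. The alternatives for border macrophages were not run, since the gate left 5 cells. The inhibitor group is 1 mouse, and the V3.0 library of mouse 3 gave 14 neutrophils. Fold changes under 2 were not simulated.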
